A study of Mus musculus with 3 samples.

Results

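Among the Pthrp-mCherry+ cells of mouse mandibular molars, one group of cells is described here by its RNA for Cpz, Entpd3, Gpx3 and Mmp23, and no cell type name was given to it. They were chosen by a score over 7 genes, Cpz, Entpd3, Gpx3, Fkbp11, Pkdcc, Grb14 and Mmp23. For each cell the score is the mean of the natural log of 1 plus the UMIs of each gene per 10000 UMIs of the cell, a UMI being 1 counted RNA molecule. Cells with fewer than 500 genes, over 20% mitochondrial UMIs, any Ptprc or Epcam UMI, or at least 1% of their UMIs from Ibsp were left out first. The 7% of the remaining cells with the highest score in each library are called members here. They were 1254 of 17924 kept and 27089 deposited cells, with 578 of 8262 kept cells in the P15 library, 425 of 6077 in the P25 library and 251 of 3585 in the P8w library.

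All 3 libraries came from Pthrp-mCherry knock-in mice in a C57BL/6 background, in which a red reporter is made from the Pthlh (PTHrP) locus, and no other allele or treatment was given in the labels. Molars of several animals were pooled, dissociated and sorted for mCherry, so a library is 1 pool and the sort admits cells with reporter protein whatever their current RNA. There was 1 library each at P15, P25 and 8 weeks (P8w), with 12926, 8971 and 5192 deposited cells. The P25 library also stands apart by its processing, since its header names another Cell Ranger version and it lists 32293 features, and this cannot be told apart from age P25. The libraries held 188157997, 169712592 and 46234378 UMIs. Members held a median of 19818, 22156 and 12450 UMIs per cell against 15044, 16114.5 and 9131.5 in the other kept cells, and a median of 4305, 4271 and 3350 detected genes against 3891, 3861 and 2907. The libraries P15 and P25 had 26 cell barcodes in common, P15 and P8w 16, and P25 and P8w 13, of which 1 barcode belonged to a member in both.

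Cells of the dental follicle give rise to the cementoblasts that cover the root, to the fibroblasts of the periodontal ligament and to osteoblasts of the socket. Ligament fibroblasts are built for secretion. They fold and export fibrillar collagens, cut them with metalloproteinases and remodel them throughout life. Wnt signals promote mineralizing fates in some of these cells, and secreted inhibitors such as Wif1 and the Sfrp proteins bind Wnt ligands before they reach their receptors.

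The 7 score genes encode proteins of the cell surface, the secretory route and the extracellular space, with 1 exception. Cpz is a secreted carboxypeptidase with a Frizzled-like domain. Entpd3 is a membrane enzyme that splits extracellular ATP and other nucleotides, Gpx3 a secreted glutathione peroxidase and Mmp23 a membrane-anchored metalloproteinase. Fkbp11 is a prolyl isomerase of the endoplasmic reticulum and Pkdcc a secreted tyrosine kinase. Grb14, the exception, is a cytoplasmic adaptor that damps insulin receptor signalling.

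The sequences upstream of the 3 genes that name the cells are shown because a reader may want to look for shared regulatory letters in them. They come from RefSeq (GRCm38.p6), run 5′ to 3′ on the strand of the gene and end at the last base before the annotated gene. The Cpz gene lies on the minus strand of chromosome 5 (chr5:35502218-35525698), and the bases shown are chr5:35525699-35525876. Entpd3 lies on the plus strand (chr9:120539818-120568327, shown chr9:120539568-120539817) and Mmp23 on the minus strand (chr4:155650655-155653384, shown chr4:155653385-155653634). Capitals mark the TCF/LEF core CTTTGAT or the RUNX core ACCACA, read on either strand.
Cpz: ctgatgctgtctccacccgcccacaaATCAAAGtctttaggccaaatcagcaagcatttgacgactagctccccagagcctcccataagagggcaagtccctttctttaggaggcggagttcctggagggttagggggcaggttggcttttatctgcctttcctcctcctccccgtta
Entpd3: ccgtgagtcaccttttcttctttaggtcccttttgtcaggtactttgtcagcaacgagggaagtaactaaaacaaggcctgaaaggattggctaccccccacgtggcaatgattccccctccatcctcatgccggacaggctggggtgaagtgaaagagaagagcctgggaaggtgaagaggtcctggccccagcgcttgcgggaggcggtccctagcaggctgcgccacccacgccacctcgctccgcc
Mmp23: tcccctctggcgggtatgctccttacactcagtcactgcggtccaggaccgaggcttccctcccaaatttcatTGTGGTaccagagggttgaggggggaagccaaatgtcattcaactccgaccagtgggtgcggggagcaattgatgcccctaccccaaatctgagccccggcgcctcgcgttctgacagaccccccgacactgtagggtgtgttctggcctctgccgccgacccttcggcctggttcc
The 2 cores were searched in the 10 windows of 250 bases that RefSeq gives before the transcript starts of the 7 score genes and Wif1. Some of these windows lie partly or wholly within the gene as GENCODE bounds it, among them those of Gpx3 and Grb14 and 1 of the Fkbp11 windows wholly. The TCF/LEF core was found in 1 of the 10 windows, that of Cpz, and in 3.21% of all 32851 RefSeq windows of that length. The RUNX core was found in 1 of the 10, for Mmp23, and in 14.0% of all windows. The cores do not overlap, and a match is only a run of letters.

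The score ran without a gap from the other kept cells into the members. The lowest member scored 1.23308, 1.39028 and 1.29674 in the P15, P25 and P8w libraries, and the highest cell left outside 1.23298, 1.39025 and 1.2959. Within 0.1 of that border lay 476, 334 and 212 kept cells. In Cpz, UMIs per 1000000 UMIs (CPM) came to 188, 351 and 280.0 in the 50 members nearest to it in the 3 libraries, and to 174, 392 and 218 in the 50 cells just outside. Members had a median score of 1.39, 1.55 and 1.46 and other kept cells of 0.410, 0.594 and 0.606. A UMI of all 7 genes was seen in 51.6%, 58.8% and 35.9% of members against 3.33%, 5.31% and 0.990% of other kept cells.

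**Figure D1:**
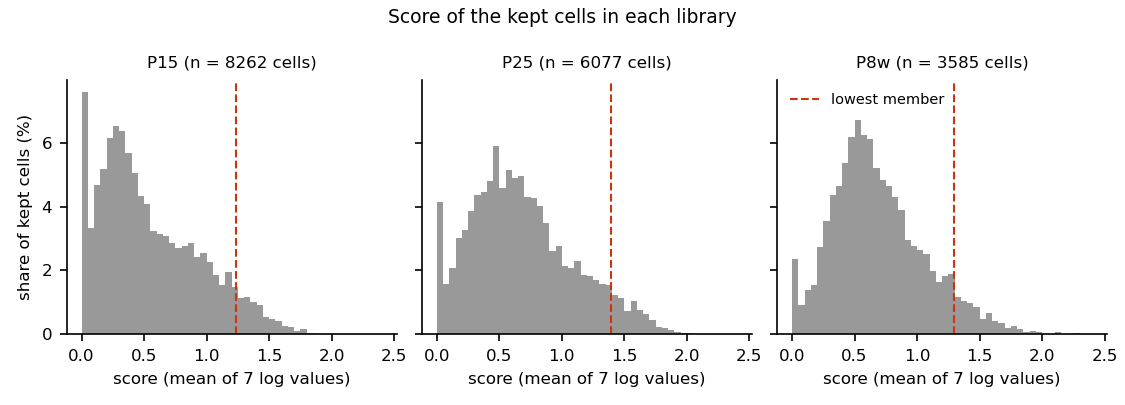
Share of kept cells (vertical axis, percent) in bins of 0.05 of the score (horizontal axis) at P15, P25 and 8 weeks, with the score of the lowest member as a dashed line. The line falls on the falling flank of 1 distribution, at 1.23, 1.39 and 1.30.

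Levels below are CPM of the UMIs of a gene summed over a class of cells against the class total, given for P15, P25 and 8 weeks in that order, and ratios are log2 of members over other kept cells as mean ± SD over the 3 libraries. Since members were chosen on RNA of the same cells, these ratios are descriptions and were not tested. Cpz stood at 224, 518 and 393 in members and 40.6, 109.9 and 59.8 in other kept cells, a log2 ratio of 2.47 ± 0.24 (SD, n = 3 libraries). Entpd3 had the largest ratio of the 7, 2.80 ± 0.13, with 127, 185 and 128 against 20.1, 26.4 and 16.9. In both genes the lowest member library lay above the highest library of other kept cells.

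Gpx3 stood at 1903, 5104 and 5737 in members and 409.6, 1182 and 1842 in the others (1.99 ± 0.31). Its level climbed with age in both classes, so that the other kept cells at 8 weeks came near the members at P15. Grb14 had 79.1, 51.8 and 95.8 against 23.4, 16.6 and 22.4 (1.83 ± 0.24). Mmp23 had 331, 363 and 255 against 85.3, 137 and 118 (1.49 ± 0.43), Fkbp11 637, 432 and 388 against 181, 203 and 153 (1.41 ± 0.37) and Pkdcc 386, 282 and 319 against 175, 111 and 102 (1.38 ± 0.25). For Gpx3, Fkbp11 and Mmp23 the ratio was largest at P15, for Cpz, Entpd3, Grb14 and Pkdcc at 8 weeks.

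Each gene was also measured in cells chosen on the other 6 genes only, so that it played no part in the choice. Entpd3 then kept a log2 ratio of 2.30 ± 0.17, Cpz 2.08 ± 0.11, Gpx3 1.52 ± 0.31, Grb14 1.41 ± 0.17, Mmp23 1.25 ± 0.46, Fkbp11 1.22 ± 0.37 and Pkdcc 1.03 ± 0.23 (SD, n = 3 libraries). All 7 ratios were smaller than before, and their order was unchanged. When members were chosen on a random split of each cell's UMIs, 80.4%, 82.1% and 78.5% of the original members were found again.

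At an equal depth of 3000 UMIs per cell, Cpz was detected in 46.2%, 71.8% and 64.5% of members and in 9.01%, 16.6% and 12.5% of other kept cells. As background, the share in cells with any UMI of the immune gene Ptprc was 4.02% of 1045 cells at P15 and 3.93% of 280 at P25. Entpd3 was detected in 31.5%, 41.4% and 29.4% of members, 4.72%, 5.56% and 4.58% of other kept cells, and 2.68% and 0.357% of those cells at P15 and P25. They also held 946 and 899 CPM of Wif1, so they are not a clean negative class. Only 26 Ptprc+ cells reached that depth at 8 weeks, too few to set a background. Before thinning, these cells held a median of 11299 UMIs at P15 and 15813.5 at P25. Without thinning, Cpz was seen in 93.6%, 98.4% and 92.4% of members and in 27.2%, 40.3% and 25.1% of other kept cells.

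**Figure D2:**
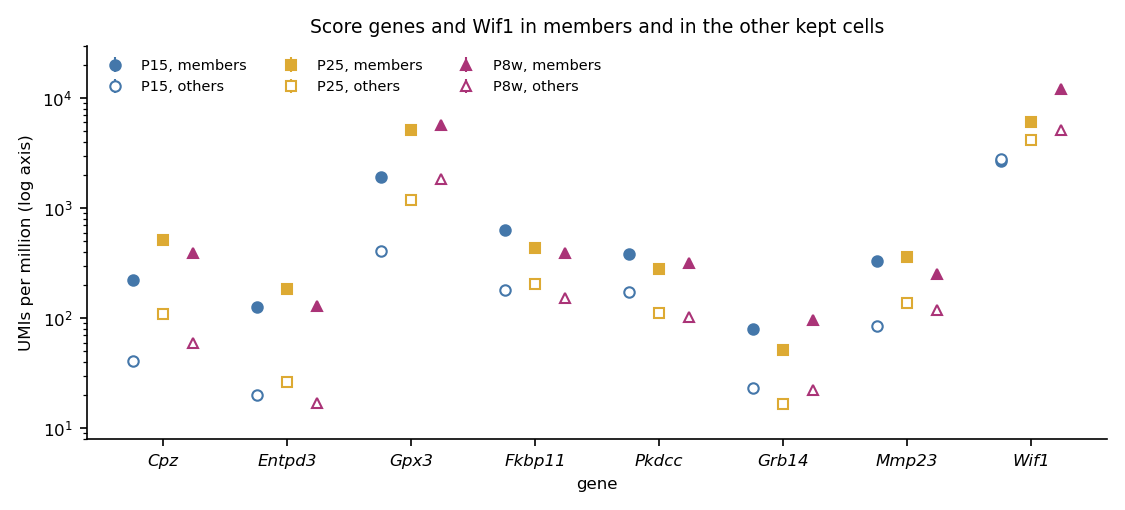
CPM (log axis) of the 7 score genes and Wif1 in members (filled) and other kept cells (open) of the 3 libraries. Bars are 95% Poisson intervals, which cover counting error only and are mostly smaller than the symbols. Members lie above the others for all 7 score genes, which chose them, while Wif1 is level at P15 and higher in members at P25 and 8 weeks.

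Wif1, a secreted Wnt inhibitor that was not in the score, differed with age. Members held 2657, 6037 and 12153 CPM and other kept cells 2792, 4181 and 5153. The log2 ratio was therefore -0.07, 0.53 and 1.24 in the 3 libraries. By total UMIs the members lay slightly below the others at P15, above at P25, and more than 2-fold above at 8 weeks. The P15 direction depends on the scaling, since -0.07 lay above the median of all genes in that library, -0.16. Among P15 members the quartiles of Wif1 UMIs per cell were 13, 39 and 80.75. They were 83, 136 and 176 in P25 members, and 92.5, 145 and 206 in P8w members. Wif1 UMIs were also seen in 40.9% of Ptprc+ cells at P15 and 34.6% at P25 after thinning, so a low Wif1 count in a cell cannot be told from free RNA.

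Pthlh, the gene that carries the reporter, was scarce in members at P15. It stood at 16.2, 40.3 and 107 CPM in members and 118, 193 and 176 in other kept cells, with log2 ratios of -2.86, -2.26 and -0.71. The mCherry transcript (mCherry_trans in the files) followed the same order, with 70.6, 131 and 299 against 247, 343 and 394 and log2 ratios of -1.81, -1.38 and -0.40. For both transcripts the gap narrowed with age, and members lay below the other kept cells of the same library each time. Fewer reporter-positive cells and less RNA per cell cannot be told apart in these sums. The Ptprc+ cells used above as background held 48.2 and 76.2 CPM of Pthlh at P15 and P25, more than the members. Pthlh in members at these ages therefore cannot be told from free RNA. Ptprc+ cells held 117 and 116 CPM of mCherry, above the members at P15 and below them at P25. After thinning, mCherry was detected in 15.3% and 28.2% of members and in 12.6% and 12.5% of Ptprc+ cells at P15 and P25. Pth1r, the receptor for PTHrP, stood at 110.2, 67.8 and 80.5 against 58.9, 50.2 and 48.4 (0.69 ± 0.24).

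General fibroblast genes were checked first, and their median log2 ratio of -0.22 lay near that of all genes, -0.19. Of 18 measured general fibroblast genes none was more than 2-fold higher in all libraries and 1, S100a4, was more than 2-fold lower, where 0.318% and 2.42% of all genes were. Thy1, another gene of that list, had no UMI in members at 8 weeks. The 3 main fibrillar collagen genes were about 2-fold higher in members. Col1a1 stood at 29419, 49291 and 29630.1 against 12634, 27518 and 15816 (0.99 ± 0.20), Col1a2 at 25326, 35057 and 21822 against 10339.7, 19826 and 11947 (0.99 ± 0.26) and Col3a1 at 14988, 19532 and 13198 against 6729, 9134 and 7976 (0.99 ± 0.23). The platelet-derived growth factor receptor Pdgfra had a lower level in members in each library, 101, 79.4 and 93.9 against 174, 152 and 189.6 (-0.91 ± 0.11), as had the mesenchymal transcription factor Prrx1, 124, 63.4 and 86.9 against 211, 189.6 and 252 (-1.29 ± 0.46).

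Markers of endothelial, epithelial, immune, glial and red cells had lower sums in members than in other kept cells in every library, the glial ones by little. Mural markers had higher sums at P15 and 8 weeks, but negative median log2 ratios in every library. The 9 endothelial genes summed to 13.9, 6.54 and 4.77 CPM against 92.2, 17.9 and 23.6 in other kept cells, with Egfl7 the most abundant and Cdh5 and Tie1 at 0 in members at P25 and 8 weeks. The 10 epithelial genes summed to 168, 112 and 31.2 against 853, 743 and 214, led by Krt14, and all 5 that were measured well enough were more than 2-fold lower. Immune genes summed to 158, 21.8 and 19.1 against 397, 30.3 and 43.2. The 5 red cell genes, led by Hbb-bs, summed to 145, 38.9 and 13.4 against 4028, 2861 and 62.4. Schwann and glial genes summed to 144, 173 and 217 against 181, 205 and 228, led by Pmp22, with Sox10 at 0 in members at P25 and 8 weeks.

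The 10 mural genes, which mark pericytes and smooth muscle, summed to 651, 221 and 634 against 612, 247 and 361. Over the 6 that were measured well enough, the median log2 ratio was -0.67, -0.75 and -0.12 in library order, and none was called. Acta2, the smooth muscle actin gene, stood at 299.9, 56.7 and 369 in members against 164, 50.5 and 109 in the others, and the pericyte marker Rgs5 at 25.7, 11.5 and 47.7 against 186, 16 and 33.8. Des, another mural marker, was at 0 in members at P25 and 8 weeks. The part of these cells in the results was not tested. Scrublet's automatic threshold marked 0.0223% of the cells at P25 and 0.154% at 8 weeks and so did not work there. Among the 6% of cells with the highest doublet score were 1.56%, 2.35% and 2.39% of members and 4.48%, 5.71% and 6.18% of other kept cells.

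Outside the score, more genes were lower than higher in members. Of 7867 genes with at least 10 CPM in either class of every library, 25 (0.318%) were more than 2-fold higher in all 3 libraries and 190 (2.42%) more than 2-fold lower. The median log2 ratio of all of these genes was -0.19. It moved by 0.22, to 0.03, when the libraries were scaled by TMM, a method that discounts the most abundant genes, and the split became 42 higher and 135 lower. With total scaling 11.6% of the called genes were higher and with TMM 23.7%.

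The 15 genes with the highest ratios are described in groups, by what they encode. Ctsh, a lysosomal cysteine protease, had the highest mean ratio among genes whose higher class reached 50 CPM in every library, with 118, 209 and 143 against 26.3, 37.1 and 31.8 (2.28 ± 0.19). The 3 libraries of members lay above those of the others, with log2 ratios of 2.17, 2.50 and 2.16. Mmp13, a collagenase, stood at 756, 1275 and 528 against 292, 293 and 163 (1.73 ± 0.38), but was lower in P8w members of 1 cluster, given below. Col16a1, a collagen that sits on the surface of fibrils, had 1258, 1580.2 and 872 against 465, 440.1 and 448 (1.41 ± 0.44), and at 8 weeks it fell just short of 2-fold. Thbs4, a thrombospondin of tendon and ligament matrix, stood at 1016, 1129 and 4537 against 761, 456 and 996 (1.30 ± 0.89). Its log2 ratio was 0.42, 1.31 and 2.19 in library order, and the P8w members stood far above the other libraries.

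Postn and Aspn, matrix genes typical of periodontal ligament, showed the opposite course. Postn had 2894, 6778 and 2514 against 966, 2198 and 1933 (1.20 ± 0.71), and Aspn, which encodes a small proteoglycan that restrains mineral, 1630.1, 1329 and 793 against 483, 644 and 476 (1.18 ± 0.52). For both the ratio was smallest at 8 weeks. Emid1, a secreted protein with an elastin-microfibril domain, had 62.7, 56.9 and 92 against 40.7, 25.3 and 22.6 (1.27 ± 0.71).

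Genes of signalling and mineral handling were also among the 15 highest. Fgfr3, a receptor for fibroblast growth factors, stood at 55.7, 72.6 and 65.9 against 25.8, 22.3 and 21.1 (1.49 ± 0.33). Sfrp2, a secreted Wnt modulator, had 928, 1723 and 1160.2 against 412, 512 and 424 (1.46 ± 0.29). Members of some clusters, given below, lay under the other kept cells in Sfrp2. Alpl, the alkaline phosphatase that splits pyrophosphate, had 557, 603 and 725 against 227, 245 and 221 (1.44 ± 0.24) and varied little among member libraries. Acp5, the tartrate-resistant acid phosphatase, had 63.3, 162 and 160.4 against 41.6, 64.2 and 53.3 (1.18 ± 0.51).

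The remaining 4 of the 15 were Elovl4, which elongates very long fatty acids, Gprc5c, an orphan receptor, Dpep1, a membrane dipeptidase, and Fam46a, a poly(A) polymerase linked to bone. Elovl4 had 86.1, 149 and 119.6 against 35.3, 49 and 46.2 (1.42 ± 0.16), Gprc5c 56.8, 61.8 and 58.9 against 22, 24.7 and 20.3 (1.41 ± 0.11), Dpep1 137, 204 and 138 against 54.7, 79.3 and 65 (1.26 ± 0.15) and Fam46a 542, 636 and 536 against 214, 281 and 239 (1.23 ± 0.10). In all, 9 of the 15 passed 2-fold in every library. The other 6, Col16a1, Thbs4, Emid1, Postn, Aspn and Acp5, did so in 2 of the 3 libraries.

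Duox1 and Duoxa1, chosen after their values were seen, were among the other 16 genes called higher. They encode an oxidase that makes hydrogen peroxide at the membrane and its maturation factor. Duox1 stood at 10.9, 11 and 12.7 against 2.2, 3.02 and 3.33 (2.04 ± 0.24) and Duoxa1 at 24.4, 23.2 and 38.8 against 5.72, 8.53 and 13.8 (1.68 ± 0.36). Both were near the floor of measurement, and neither reached 50 CPM in members.

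**Figure D3:**
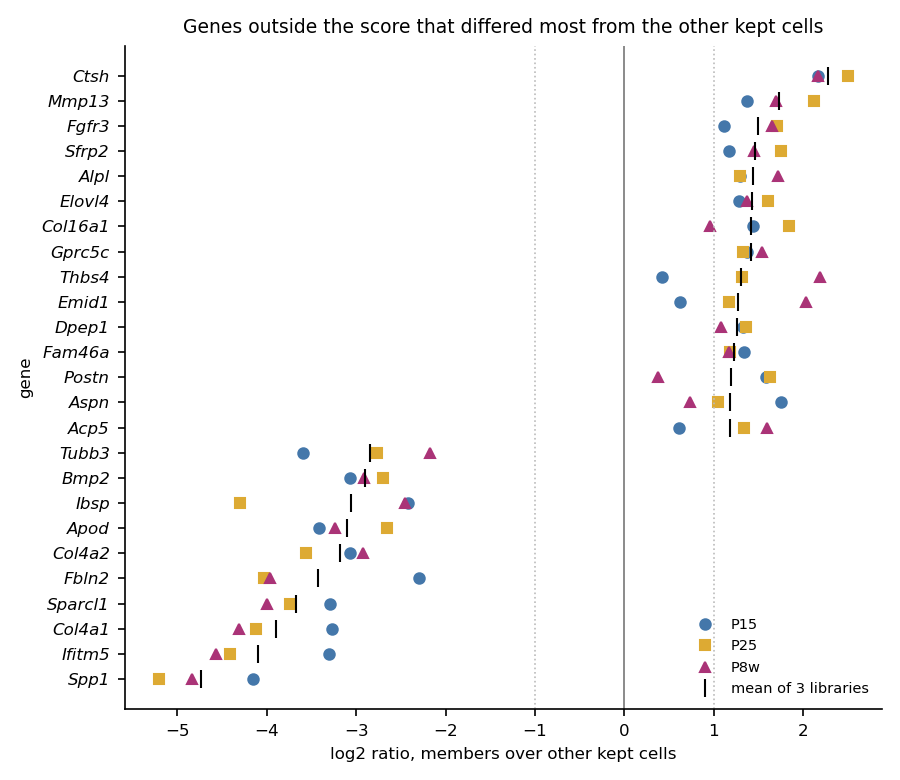
Log2 ratio of members over other kept cells (horizontal axis) for the 15 highest and 10 lowest genes outside the score whose higher class reached 50 CPM, 1 symbol per library and a tick for the mean. Dotted lines mark a 2-fold ratio. All 10 lower genes lie beyond it in every library, and 9 of the 15 higher genes do.

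The 10 genes with the lowest mean ratio at that level of expression included those of mineralizing cells and of basement membrane. Spp1 (osteopontin) stood at 12.3, 15.9 and 29.6 in members and 220.1, 588 and 849.9 in other kept cells, a log2 ratio of -4.73 ± 0.53. Ifitm5, an osteoblast gene, had 5.19, 7.06 and 2.23 against 51.6, 152 and 56.4 (-4.09 ± 0.69). Ibsp (bone sialoprotein) had 103, 55.8 and 189 against 551, 1098 and 1041 (-3.06 ± 1.07), although cells with 1% or more of it had been removed from both classes by the rule. In all 3 genes every member library lay below every library of the others.

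Col4a1 and Col4a2, the chains of basement membrane collagen, had 20.7, 10.8 and 4.45 against 199, 189 and 91.7 (-3.90 ± 0.56) and 15.3, 11.3 and 9.23 against 129, 134 and 71 (-3.18 ± 0.34). Fbln2, an extracellular glycoprotein of basement membranes and elastic fibres, had 18.6, 7.37 and 10.5 against 91.5, 121 and 166 (-3.43 ± 0.98). Sparcl1, a matricellular protein, had 10.2, 7.68 and 17.5 against 100.4, 103 and 282 (-3.68 ± 0.36) and the lipid carrier Apod 12.6, 34.6 and 90.4 against 136, 218 and 852 (-3.10 ± 0.40), rising with age in both classes. Bmp2, an inducer of bone, had 10.6, 18.3 and 20.7 against 89.3, 119 and 157 (-2.90 ± 0.19). Tubb3, a tubulin of neurons that some other cells express, had 9.26, 14.8 and 16.5 against 113, 102 and 75.6 (-2.85 ± 0.71).

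The marker lists that the study gives for its own clusters separated in the same way. These lists were chosen by the study on cells that include these libraries and are not independent evidence. Called genes in these and later lists are read beside all genes, of which 0.318% were called higher and 2.42% lower. The Precursor 3 markers had a median log2 ratio of 1.04 over 8 genes, against -0.19 for all genes, and 1 of the 8, Alpl, was more than 2-fold higher in all libraries. Sparc, the collagen-binding matricellular protein of that list, stood at 22531, 37651 and 29878 against 10026, 20609 and 12679 (1.09 ± 0.20). The Precursor 0 markers had a median of 0.36 over 7 genes outside the score, with none called in either direction. The Precursor 1 markers had a median of -0.84, and 1 of 7, Vcan (versican), was called lower.

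Most Cementoblast alpha markers were low in members, while the beta markers went both ways. Of 9 Cementoblast alpha markers 8 were called lower, with a median of -2.79, and Timp3 was the exception. Dmp1, the matrix phosphoprotein of mineralizing cells, stood at 1.21, 1.35 and 0.95 against 12.2, 84.3 and 64.2 and Bmp3 at 21, 18.5 and 32.8 against 107, 167 and 207 (-2.72 ± 0.42). Of 7 measured Cementoblast beta markers, Dmp1, Ifitm5 and Col11a2 were called lower, and the list median was -2.27. Col1a1 and Sparc, whose values are given above, are beta markers as well and had log2 ratios of 0.99 ± 0.20 and 1.09 ± 0.20. With these abundant genes the 8 listed beta markers summed to 52382, 87727 and 66026 CPM in members against 23905, 52212.5 and 33408 in the others. The osteocalcin gene Bglap of that list, whose reads can be shared with Bglap2 so that its values are uncertain, stood at 381, 688 and 6351 in members against 755, 3221 and 4425. Members lay below the others at P15 and P25 and above them at 8 weeks. Runx2 and Sp7, the transcription factors of the osteoblast lineage, stood at 262, 206 and 363 against 243, 200.5 and 249.8 (0.23 ± 0.27) and at 80.5, 118 and 122 against 82.3, 107 and 96.6 (0.15 ± 0.18).

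Of the 3 lists of periapical cells of the study, 2 had medians below that of all genes in every library. The Periapical 7 markers had a median of -1.36, with 3 of 7 called lower, Col18a1, Col4a1 and Wnt5a. The Periapical 10 markers had a median of -1.33, with Mgp, Nrp1 and Col4a1 called lower of 7. The third, the Periapical 2 markers, had medians of 0.26, -0.54 and -1.27 in library order, and none of 6 was called. Of 9 adventitial fibroblast genes 3 were called lower, Cd34, Clec3b and Col15a1, and the medians were -0.73, -1.43 and -3.24.

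Genes for making and exporting collagen had a list median above that of all genes. Of 30 genes of endoplasmic reticulum folding and collagen secretion outside the score none was called, and the list median was 0.17. P3h1, a prolyl hydroxylase of collagen, stood at 183, 163 and 131 against 91.9, 109.9 and 78 (0.77 ± 0.21), Fkbp7, another prolyl isomerase, at 315, 372 and 371 against 179, 251 and 225 (0.70 ± 0.12) and Serpinh1, the collagen chaperone, at 2812, 3186 and 2638 against 1755, 2579 and 1879.9 (0.49 ± 0.19). Hspa5, the general chaperone of the same compartment, had 713, 868 and 659.9 against 768, 1059 and 780.3 (-0.21 ± 0.09).

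Of 24 collagen genes measured none was called higher and 9 were called lower, Col4a1, Col4a2, Col5a3, Col7a1, Col8a1, Col11a2, Col14a1, Col15a1 and Col18a1. The 31 listed collagen genes together took 77756, 112329 and 70203 CPM in members against 34979, 64155 and 41398 in the others. Most of the sum came from Col1a1, Col1a2 and Col3a1. Col27a1, a fibrillar collagen of growing skeleton, had 179.6, 195 and 127 against 73.4, 85.3 and 76.1 (1.08 ± 0.29), and Col14a1, found on fibrils of mature tissue, 1.04, 1.56 and 0.64 against 44.7, 14.3 and 79.1, with only 2 UMIs in members at 8 weeks.

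Metalloproteinases and their inhibitors had a median of 0.42 over 14 genes outside the score, with Mmp13 called higher and Mmp11 lower. Adamts2, which removes the amino-terminal propeptide of collagen, stood at 256, 319 and 255 against 139, 224 and 183 (0.62 ± 0.22). Timp1 and Timp2, which block metalloproteinases, had 216, 265 and 181 against 130.2, 209 and 99.9 (0.64 ± 0.27) and 1127, 1597 and 1304 against 645, 985 and 1082 (0.59 ± 0.28). Of 6 other carboxypeptidase genes Cpxm1 was called higher, with 768, 1343 and 1295 against 378, 542 and 592 (1.15 ± 0.15), and Cpm lower. Aebp1, a related matrix protein that binds collagen, had 1001, 2125 and 2345 against 567, 912 and 975 (1.10 ± 0.25).

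Of 13 measured genes of peroxidases and antioxidants besides Gpx3 only Sod3, the extracellular superoxide dismutase, was called, and it was lower, with 0.78, 4.25 and 1.59 against 16.1, 81.7 and 49.1 (-4.45 ± 0.31). Gpx7 and Gpx8, the peroxidases of the endoplasmic reticulum, had 290.1, 239 and 149 against 159.9, 152 and 119.6 (0.61 ± 0.27) and 309, 331 and 294 against 210.4, 218 and 182 (0.62 ± 0.07). Gpx4, which protects membrane lipids, had 419, 384 and 429 against 461, 463 and 502 (-0.21 ± 0.07). Of 8 measured genes of nucleotide and pyrophosphate handling besides Entpd3, Alpl was called higher while Enpp1, which makes pyrophosphate, and Ank, which exports it, were called lower. Ank stood at 20.2, 27.7 and 39.1 against 70, 105 and 98.7 (-1.68 ± 0.31). Entpd2, a relative of Entpd3, had 3.12, 6.43 and 11.8 against 6.04, 9.52 and 29.

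Wnt genes are given by role, and the roles were not compared by a test. Of 9 secreted inhibitors Sfrp2 was called higher and Dkk2 lower, with 3.12, 3.32 and 0.32 against 22.1, 39.6 and 38.6 (1 UMI in members at 8 weeks), and the list median was -0.05 by total scaling and 0.17 by TMM. Sfrp1 had 327, 335 and 434 against 206, 182 and 249 (0.78 ± 0.11). Of 7 Wnt and R-spondin ligands 2 were called lower, Wnt4 and Wnt5a, and none higher, with a median of -1.11. Wnt5a, a ligand of noncanonical signalling, stood at 49.3, 51.8 and 68.4 against 147, 276 and 206 (-1.86 ± 0.48).

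Downstream, 1 of 9 genes of the canonical response was called lower, Nkd1, with 28.4, 28.8 and 38.2 against 117, 102 and 100.4 (-1.75 ± 0.33), and the median was -0.95. Axin2, the feedback inhibitor that reports canonical Wnt activity, had 15.8, 9.13 and 17.2 against 42, 27.8 and 29.9 (-1.27 ± 0.42), and the transcription factor Lef1 40.6, 16.8 and 28.6 against 86, 42.5 and 39.3 (-0.95 ± 0.46). None of 11 Frizzled receptors and co-receptors was called, and their median of -0.24 lay close to that of all genes. None of 7 hedgehog genes was called, with a median of -0.11 by total scaling and 0.11 by TMM.

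Of 15 genes of the BMP pathway 3 were called lower, the ligands Bmp2, Bmp3 and Bmp4, where 2.42% of all genes were. None was called higher. Bmp4 had 21.6, 10.2 and 30.5 against 106, 67.7 and 70 (-2.07 ± 0.79). The receptor Bmpr1a had 63.4, 66.1 and 94.5 against 84.2, 81.5 and 96.3 (-0.24 ± 0.20), and the target Id3 1251, 1156 and 1816 against 1623, 1597 and 1752 (-0.26 ± 0.28). Among 15 genes of the insulin and IGF axis besides Grb14, the binding proteins Igfbp3 and Igfbp6 were called lower. Igfbp3 had 219, 501 and 624 against 520.2, 1421 and 1469 (-1.33 ± 0.15), and Igf1r 73.3, 63.2 and 102 against 93.3, 107 and 158 (-0.57 ± 0.21). Of 5 cytokines that govern osteoclasts Tnfrsf11b (osteoprotegerin) was called lower, with 5.97, 6.74 and 26.4 against 53.1, 59.1 and 55.1 (-2.44 ± 1.20).

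Of 13 ligament and tendon genes only Col14a1 was called, and the list median was 0.16. Scx, the transcription factor of tendon and ligament, had 12.4, 25.8 and 22.9 against 5.93, 11.7 and 12.3 (1.04 ± 0.12), and Tnmd, a membrane protein of mature tendon, 180.0, 163 and 52.5 against 149, 146 and 51.3 (0.16 ± 0.12). None of 8 small leucine-rich proteoglycans was called. Of 28 transcription factors of jaw and tooth patterning 1, Pitx1, was called lower. Among all genes 2.42% were called lower, so lists of this size with 1 such gene lie near the background. In the same list Runx3 had 58.3, 65.4 and 73.5 against 46.2, 40 and 38.9 (0.66 ± 0.30). Of 7 cell cycle genes 5 were called lower, and Mki67, present only in cycling cells, had 13.4, 9.13 and 1.59 against 48.6, 35.2 and 15.9 (-2.33 ± 0.75). Of 15 genes of the dissociation response 1 was called lower, Atf3, and Fos had 3356, 3898 and 7351 against 4346, 4571 and 7409 (-0.20 ± 0.18).

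**Figure D4:**
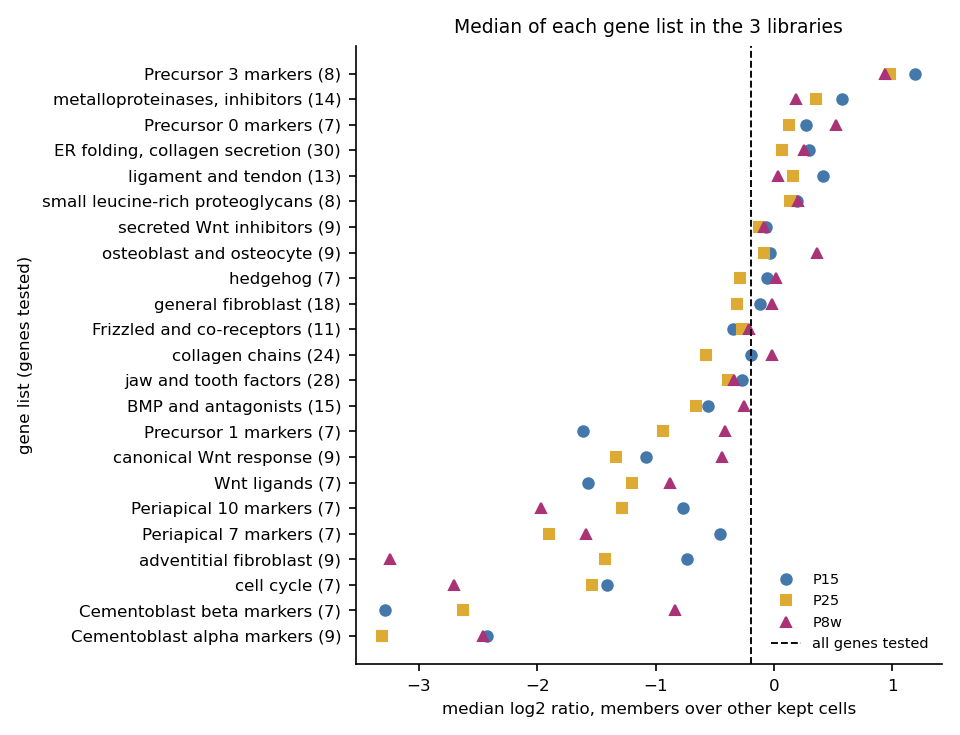
Median log2 ratio of members over other kept cells (horizontal axis) for 23 gene lists, 1 symbol per library, with the number of genes measured in brackets. The dashed line is the median of all 7867 genes, -0.19. Precursor 3 markers lie near 1 in all libraries and the Cementoblast markers below, with the beta list closest to the line at 8 weeks.

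Members stood near each other when each library was clustered without the score genes. Of the 20 nearest neighbours of a member, 47.0%, 57.2% and 49.0% were members, against 4.43%, 3.74% and 4.86% for other kept cells. Other genes of the same cells enter both the score's totals and the clusters, so these shares are descriptions. At resolution 1 the libraries gave 25, 23 and 17 clusters, of which 8, 9 and 10 held no member. The 3 clusters with the most members held 87.7%, 81.9% and 90.8% of them and 30.3%, 20.6% and 22.2% of all kept cells. No cluster was made of members alone, and members made up at most 27.5%, 43.0% and 34.8% of the cells of a cluster in the 3 libraries. At the finer resolution 2 they made up at most 45.3%, 78.9% and 69.3%. The cluster with the most members at resolution 1 held 32.2%, 43.3% and 46.2% of all members.

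Members thus lay in several clusters of each library, and Wif1, Sfrp2 and Mmp13 differed among them. At P15, clusters 1, 2 and 3 held 137, 184 and 186 members. Wif1 stood at 619, 2942 and 3966 CPM in those members, and Entpd3 at 138.5, 139.5 and 101. At P25, clusters 4, 5 and 7 held 184, 134 and 30 members with Wif1 at 6404, 5961 and 7245. At 8 weeks, clusters 3, 7 and 6 held 116, 73 and 39 members with Wif1 at 13048, 13235 and 9253. In the same order of clusters, Sfrp2 stood at 81.9, 1699 and 512 in P15 members and at 1942, 1069 and 3835 in P25 members. In P8w members Sfrp2 stood at 1085, 1694 and 77.2, and Mmp13 at 600, 647 and 65.3. The P8w cluster 7 was led by macrophage genes such as Cd74 and Lyz2. In it, 4 cells had more than 5 Cd74 UMIs, and none of the 4 was a member. Cpz was higher in members than in the rest of the same cluster in each of these clusters, which the rule fixes.

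Members overlapped to different degrees with cells that score high for marker genes of other groups of cells. By the mean of Hand2, Nts and Alx1, 18.5% of members at P15 but 0.941% at P25 and 0.398% at 8 weeks were in the top 7% of kept cells. For Pappa2, Col13a1 and Spon2 the shares were 19.0%, 18.4% and 5.98%. For Ogn, Angpt4, Igfbp3 and Sfrp2 they were 6.92%, 6.59% and 5.98%. They were 1.56%, 0.471% and 1.59% for Mmp3, Dio2 and Il1rl1, and 1.21%, 0.235% and 0.398% for Mia, Apod and Gpha2. Classes of equal size are compared here, so each share holds for both. A class drawn without regard to the score would hold 7%. At P15 the cluster led by Hand2, Nts and Alx1 had 186 cells and held 24 members, 4.15% of all members.

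Against the next 7% of kept cells by score, 0 genes outside the score were more than 2-fold higher in members in all libraries and 8 were lower, namely Ntng1, Bmp3, Spp1, Aqp1, Ifitm5, Smpd3, Igfbp3 and Col11a2. Entpd3 had a log2 ratio of 1.00 ± 0.19 and Ctsh of 0.74 ± 0.06 over that band (SD, n = 3 libraries). Wif1 had 0.04 ± 0.25. The Ctsh level of the band was 67.4, 127 and 88.2 CPM, between the members and the rest.

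The share of cells above 1 common score, after thinning every cell to 3000 UMIs, was lower at P15 than later. It was 5.10% of 7878 P15 cells (95% Clopper-Pearson interval 4.63 to 5.61), 8.90% of 5912 P25 cells (8.18 to 9.65) and 8.15% of 3238 P8w cells (7.23 to 9.15). The intervals cover counting error only, and with 1 library per age the spread between animals is unknown. Gpx3, 1 of the 7 score genes, also rose with age in other kept cells, with 409.6, 1182 and 1842 CPM. Its part in these shares was not tested. Thinning left out 384, 165 and 347 kept cells under 3000 UMIs. Without thinning the shares were 5.18%, 9.63% and 6.75%.

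Between P15 and 8 weeks, 410 of 8357 genes (4.91%) rose more than 2-fold in members and 296 (3.54%) fell. In other kept cells 397 of 8968 (4.43%) rose and 318 (3.55%) fell. With 1 library at each age these counts have no replicate check, and rose or fell here means only past 2-fold. Of the 410 genes that rose in members 42.0% also rose in the others, and of the 296 that fell 38.2% also fell. The 410 include genes that were not measured in the others. Among genes measured in both classes, 172 rose in both and 207 in members only.

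Some genes took a course in members that the other kept cells did not share. Slc7a8, an amino acid transporter, stood at 18.1, 38.9 and 69.7 CPM in members and 37.9, 25.1 and 20.2 in the others. C1ql1, a secreted C1q-like protein, had 11.9, 25.4 and 53.5 against 17.5, 9.2 and 14.2. The cell cycle gene Ccnd1 (cyclin D1) had 68.8, 72.8 and 220.2 against 232, 129 and 135 and Srgn, the proteoglycan serglycin, 18.5, 72.5 and 98.6 against 27.5, 28.6 and 28.9. In these 4 genes the members began below the others at P15 and ended above them.

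Smpd3, the neutral sphingomyelinase needed for mineralization, rose from 38.3 to 153 in members against 391 to 273 in the others, and Tcf7, a transcription factor of canonical Wnt signalling, from 13.5 to 54.7 against 90.3 to 74.6. Members stayed below the others in both. Hbb-bs, a haemoglobin gene, is among them only because it fell less in members, 84.8, 18.3 and 8.27, than in the others, 2331, 1407 and 29.6.

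8 further genes fell most against the others, and of these Pappa2, a protease that frees IGF from its binding proteins, stood at 104, 1.87 and 0.64 in members and 35.5, 3.58 and 3.77 in the others, the last member value resting on 2 UMIs. At P15, 23.7% of members were in a cluster led by Pappa2 and Col13a1, and none of the 3 clusters with the most members at P25 or 8 weeks was led by them. Sulf2, a sulfatase of heparan sulfate, had 126, 62.3 and 9.55 against 32.4, 33.4 and 31.2, the neuropeptide gene Nts 145, 103 and 73.5 against 70.4, 241 and 349.9 and Col13a1, a transmembrane collagen, 65.9, 2.18 and 2.23 against 31, 9.34 and 6.37. Tnn (tenascin-W) had 561, 977 and 616 against 178, 926 and 1289.8 and Rbp4, a retinol carrier, 101, 70 and 13.4 against 19.3, 15.6 and 13.6. Timp3 had 353, 162 and 176 against 284, 257 and 625 and Sfrp4, a Wnt modulator, 56.9, 56.3 and 43.9 against 41.1, 52.8 and 122. Tnn, Nts, Timp3 and Sfrp4 did not pass a 2-fold fall in members, and in the others they rose more than 2-fold.

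Some gene lists moved with age in both classes, while none of 11 Frizzled receptors and co-receptors rose or fell in either class. Of 15 dissociation response genes 10 rose in members and 7 in the others, and Fos went from 3356 to 7351 in members and from 4346 to 7409 in the others. Their part in the other differences between ages was not tested. Of 9 cell cycle genes measured in members 7 fell, and of 12 in the others 11. Of 22 collagen genes in members 8 fell and 2 rose, and of 30 in the others 7 fell and 3 rose. Among all genes 3.54% fell and 4.91% rose in members. Aspn fell from 1630.1 to 793 while Dcn (decorin) rose from 1033 to 3693. Bglap2, an osteocalcin gene that shares reads with Bglap and is therefore uncertain, went from 509.8 to 6732 in members and from 460.3 to 4112 in the others.

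**Figure D5:**
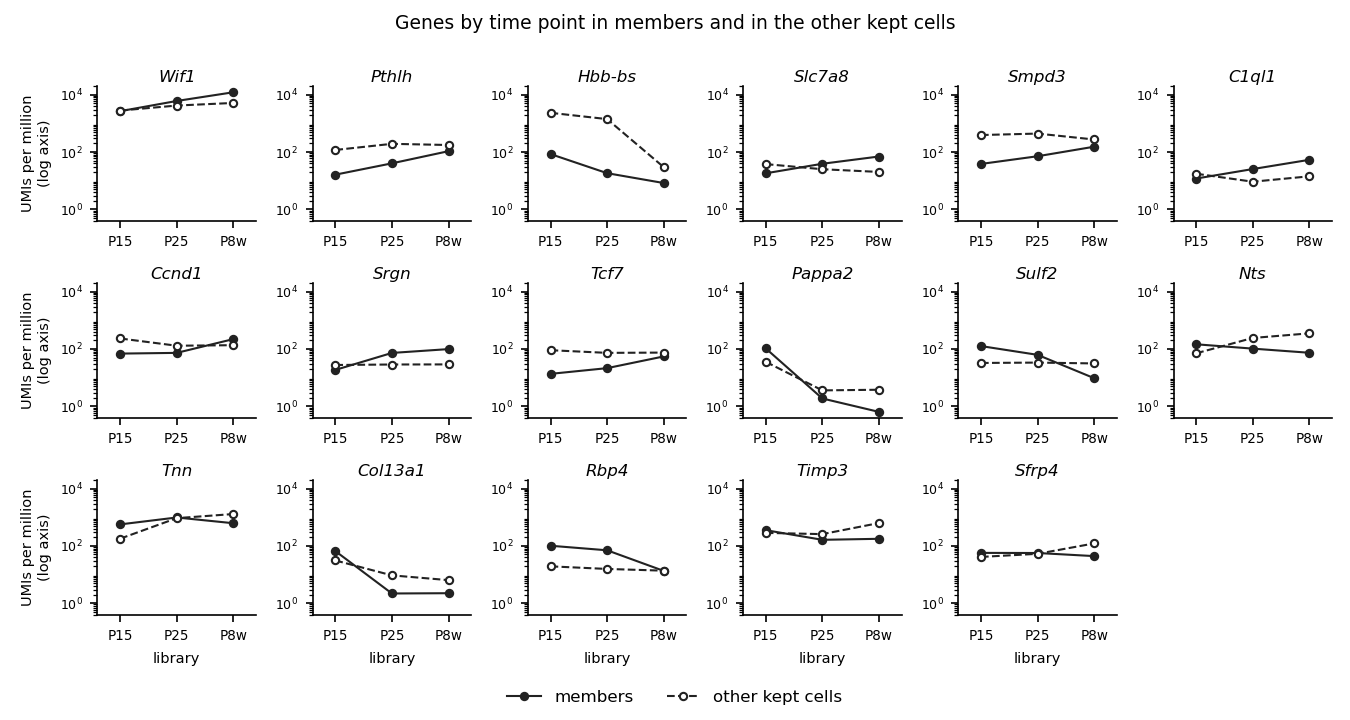
CPM (log axis) at P15, P25 and 8 weeks in members (filled, solid) and other kept cells (open, dashed) for Wif1, Pthlh and 15 of the 16 genes whose course from P15 to 8 weeks differed most. Each point is 1 library, and the lines only join ages. Slc7a8, C1ql1, Ccnd1 and Srgn cross from below to above the others, and Pappa2, Sulf2, Nts, Tnn, Col13a1, Timp3 and Sfrp4 cross the other way.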

How the data were processed

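Pthrp-mCherry+ cells were sorted from pooled mandibular molars, and 1 library per age was made with the 10x Chromium 3′ v3.1 kit. The authors counted UMIs per gene and cell with Cell Ranger, and the deposited files hold these raw counts with mouse build mm10. The file headers name version 6.0.1 for P25 and 6.1.2 for P15 and P8w, while the labels give 6.1.2 for all. The 21446 gene IDs shared by the libraries were used. Members and gene lists were chosen with earlier results of these data known.

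UMI sums were formed for each class of cells in each library. Genes with at least 10 CPM in either class of every library were compared as log2 ratios with 0.5 UMIs added. A gene was called when it passed 2-fold in the same direction in all 3 libraries, or, between P15 and P8w, in 1 pair of libraries. No p-value was computed, since members were chosen on the same RNA and each age had 1 library. Replicate numbers only name the samples. Named genes were the 7 score genes and Wif1, the 15 highest and 10 lowest mean ratios at 50 CPM or more in the higher class of every library, the 8 that rose and 8 that fell most against the other cells from P15 to P8w, of which 1 is not reported here, and members of 45 lists. Intervals are exact and cover counting error only. Cells were thinned to 3000 UMIs for shares. Clusters used 2000 variable genes without the score genes, 30 principal components and Leiden (scanpy 1.11.5, leidenalg 0.10.2). TMM came from edgeR 4.0.16 in R 4.3.3, and the other steps from Python 3.11.15 with numpy 2.4.6 and scipy 1.17.1. Doublets were scored with Scrublet and kept. Alternatives covered the size of the class, scaling, filters, the comparison cells and each library left out.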

Additional observations from a re-analysis of the deposited data

Results flagged for a closer look

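In 12 genes the log2 ratio of members over other kept cells pointed one way at P15 and the other way at 8 weeks, with counting intervals that exclude 0 at both ages. For Wif1 this depends on the scaling. With TMM factors of 0.989 for P15 members and 1.15 for the others, its P15 ratio of -0.07 turns positive. The difference between ages was not tested, since each age had 1 library. Of the 12, all but Wif1 were picked because their course from P15 to 8 weeks differed most between the classes, so opposite directions are not independent of the choice. The ratio rose by 1.31 for Wif1, 2.85 for Slc7a8, 2.47 for C1ql1, 2.46 for Ccnd1 and 2.34 for Srgn. The change was -3.80 for Pappa2, -3.64 for Sulf2, -3.29 for Nts, -2.72 for Tnn, -2.51 for Col13a1, -2.14 for Timp3 and -1.93 for Sfrp4. For Pappa2 the P8w members held 2 UMIs.

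Some cells that the rule left out scored as high as members. At P15, 13 of 1123 cells left out for a Ptprc UMI (1.16%) and 12 of 1102 left out for an Epcam UMI (1.09%) reached the score of the lowest member, above the limits of 0.267% and 0.272% that a count of 0 allows. At P25, 5 of 789 cells left out for an Epcam UMI (0.634%) did so, above the limit of 0.380%. The share was 2 of 290 (0.690%) for Ptprc at P25, below the limit of 1.03%. At 8 weeks it was 0 of 29 for Ptprc and 1 of 97 for Epcam (1.03%, limit 3.09%).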

How the results depend on the processing

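The counts of 25 higher and 190 lower genes became 42 higher with TMM, 201 higher and 951 lower with no filter on low values, and 0 higher and 8 lower against the next 7% of cells by score. Leaving out 1 library gave 28 to 53 higher and 212 to 350 lower genes. Fewer libraries make the call easier to meet. With the score genes chosen on the other 6, log2 ratios were 2.08 for Cpz, 2.30 for Entpd3, 1.52 for Gpx3, 1.03 for Pkdcc and 1.41 for Grb14. Between P15 and P8w, 168 genes rose and 73 fell at a minimum of 50 CPM. The P8w share above the common score was 6.75% without thinning. With 5% of the pooled cells above it, the shares were 3.58%, 6.95% and 5.74%, and with 10% they were 7.68%, 12.3% and 11.7%. P15 stayed lowest in each. The cluster with the most members held 43.8% of all members at resolution 0.5 and 42.0% at resolution 2 for P15, 32.5% at resolution 2 for P25, and 91.6% and 24.3% for P8w. The mean overlap over libraries was 2.68% for the Mmp3, Dio2 and Il1rl1 class, 1.83% for the Mia, Apod and Gpha2 class and 12.8% for the Ogn, Angpt4, Igfbp3 and Sfrp2 class at the top 10%, and 5.01% for the last at the top 5%, where classes drawn without regard to the score would overlap by 10% and 5%. Hbb-bs turned to a log2 ratio of 0.16 against other cells without UMIs of a few markers of other cell types, Hba-a1 among them, a choice that itself removes red cell RNA. Of the other values of named genes 712 kept within the spread between libraries and 71 moved, and of list medians 487 kept and 105 moved. These counts pool all alternatives. Against the next 7% of cells by score, 32 gene values moved and 17 kept, and 25 list medians moved and 12 kept. With TMM 7 gene values moved and 42 kept, and 19 list medians moved and 18 kept. Members of the cluster that holds most of them, a choice made after seeing the data, gave 18 higher and 228 lower genes, with 14 and 172 in common with the original calls. No paired analysis was possible because the ages, the only groups in the labels, had 1 library each, while members and other kept cells were compared within each library throughout. The P8w library was the shallowest, with 3142678 UMIs in members.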
